A study of Rangifer tarandus with 4 samples.

Results

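The cathelicidin genes described here are the gene models whose symbol starts with CATHL in the annotation deposited with the series. The rule found 5 of 21880 genes: CATHL2, CATHL3, CATHL4, CATHL5 and CATHL6. No gene carried the symbol CATHL1. The series profiled mononuclear blood cells of Rangifer tarandus, the reindeer, as single-cell 3′ RNA libraries on day 3 after a wound. There were 2 libraries of blood taken at the saphenous vein, called back, and 2 of blood taken at the distal antler velvet, called antler, each loaded with about 12000 cells. The labels name no genotype, age or treatment beyond the wound, and they do not say whether the libraries of a site came from different animals. The titles carry the codes 5XD and 4XE, each on 1 library of either site, and what a code marks is not stated. UMI counts per gene were not analysed here, and antler and back are therefore not compared. The values below are lengths and positions, counted from 1, of Bos taurus (cattle) models on assembly ARS-UCD1.2, and how these models match reindeer transcripts was not examined.

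Cathelicidins are host defence peptides that are stored as inactive precursors, mainly in the granules of neutrophils. Each precursor has a signal peptide, a conserved cathelin-like domain related to the cystatin fold, and a variable peptide at its C-terminal end that is released by proteases such as elastase and then kills microbes. Humans have a single gene, CAMP, whereas cattle and other ruminants have a family with very different end peptides. By their symbols, CATHL2 and CATHL3 of cattle encode bactenecins rich in proline and arginine, and CATHL4 encodes indolicidin, which is rich in tryptophan. CATHL5 and CATHL6 encode alpha-helical myeloid antimicrobial peptides. Whether each transcript under a symbol encodes the peptide of that name was not examined. In genes of this family the last exon is known to carry the end peptide.

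All 5 genes lay on the minus strand of chromosome 22 within 94255 bases. From the lowest to the highest coordinate the order was CATHL3, CATHL4, CATHL2, CATHL6 and CATHL5, so their numbers do not follow their order. CATHL3 (ENSBTAG00000013356) ran from 51579579 to 51621314, a span of 41736 bases with 7 transcripts. The other members were compact and had 1 transcript each. Of all protein-coding genes, 37.7% had more than 1 transcript and 1.24% had at least 7. The limit of 7 is the number of CATHL3 transcripts. CATHL4 (ENSBTAG00000053016) ran from 51592817 to 51594193 and spanned 1377 bases. CATHL2 (ENSBTAG00000024852) ran from 51641063 to 51642757 and spanned 1695 bases. CATHL6 (ENSBTAG00000049629) ran from 51662801 to 51665452 and spanned 2652 bases. CATHL5 (ENSBTAG00000020076) ran from 51671499 to 51673833 and spanned 2335 bases. CATHL4 therefore lay wholly inside the limits of CATHL3.

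Further gene models of the same strand stood between and beside the members. CAMP (ENSBTAG00000003022, chromosome 22, 51574749 to 51576697, minus strand), which carries the symbol of the human cathelicidin gene, lay 2881 bases from the 3′ end of CATHL3. Between the outermost members there were 4 genes without a symbol, ENSBTAG00000052903, ENSBTAG00000039879, ENSBTAG00000016153 and ENSBTAG00000031594. Together with CAMP these models and the members formed an unbroken run of 10 genes on the minus strand over 99085 bases. The members have a symbol by the rule that chose them, so only the other genes of the run could lack it. Of these, CAMP had a symbol and 4 genes had none. Over all protein-coding genes, 23.1% had none. Runs of at least 10 genes of 1 strand held 4.25% of all genes of the annotation. The limit of 10 is the length of this run itself. The run ended at plus-strand genes on both sides. NME6, a nucleoside diphosphate kinase gene (ENSBTAG00000003025, 51557935 to 51564695), lay 10053 bases below CAMP, and CDC25A, a phosphatase gene of the cell cycle (ENSBTAG00000009586, 51693533 to 51717133), lay 19699 bases above CATHL5. Within 100 kb of the outermost members there was 1 more gene without a symbol, ENSBTAG00000053231, on the plus strand from 51513513 to 51517679, with 2 coding exons.

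**Figure D1:**
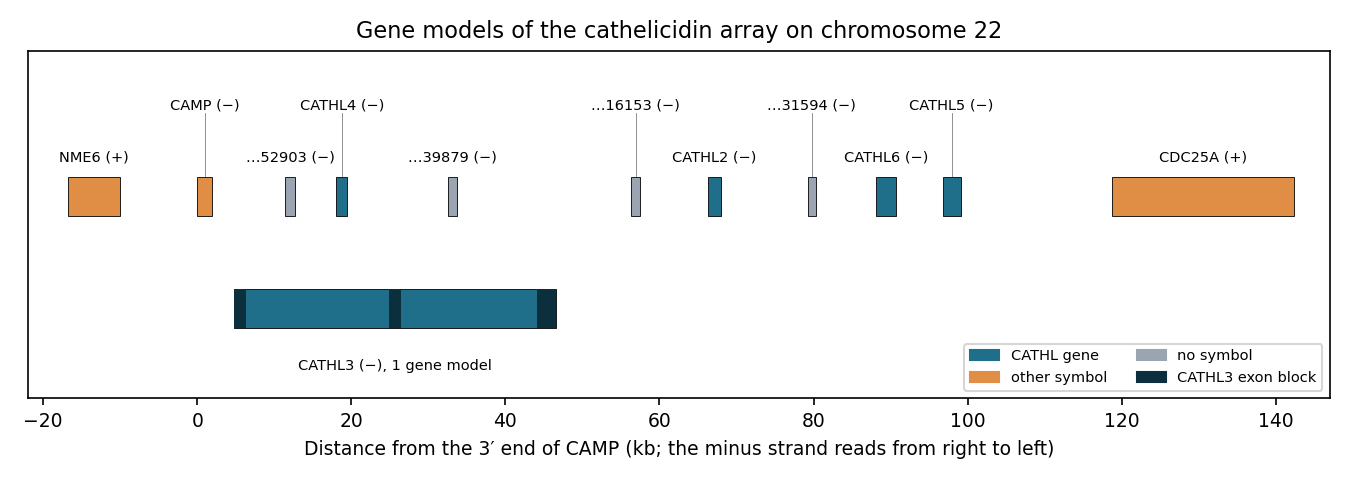
Gene models of the array, drawn to scale by distance in kb from the 3′ end of CAMP, with the strand in brackets and unnamed genes by the last 5 digits of their identifier. CATHL3 is drawn on its own row with its 3 exon blocks in dark; CATHL4 and 2 unnamed models lie inside its limits.

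The members shared 1 coding structure. Each had 4 coding exons, with 108 bases in the second and 72 bases in the third, in its transcript with the longest coding sequence. In the annotation, 1595 of 21861 protein-coding genes, or 7.30%, had 4 coding exons. Of those 1595 genes, 19 had a second coding exon of 108 bases (1.19%), and in 16 the third measured 72 bases (1.00%). Both lengths together were found in 7 protein-coding genes, or 0.0320%, and those were the 5 members, CAMP and the unnamed ENSBTAG00000052903 (chromosome 22, 51586120 to 51587500, minus strand). The search used lengths alone and no sequence. With any number of coding exons allowed, the 2 lengths stood side by side in 11 more genes, among them MCCC1, TPCN1 and the magnesium transporters SLC41A1, SLC41A2 and SLC41A3, so the 2 lengths alone were not particular to the array.

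Every coding exon of the members began on a whole codon. This held for all 11 transcripts of the 5 genes, each of which also had an annotated start and stop codon. The share of all transcripts with both codons is not given here. Among all protein-coding genes with 4 coding exons, counted per gene and not per transcript, every coding exon began in frame 0 in 144 of 1595, or 9.03%. Each inner exon of a member thus adds a whole number of codons to the precursor.

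The members differed at the last coding exon. Its length, without the stop codon, was 54 bases in CATHL4, 93 bases in CATHL6, 96 bases in CATHL5, 150 bases in CATHL2 and 192 bases in the CATHL3 transcript with the longest coding sequence. The longest was 3.56 times the shortest, while the second and the third coding exons did not vary at all among these transcripts. Among these transcripts the bactenecin genes CATHL2 and CATHL3 had the longest last coding exons, and the indolicidin gene CATHL4 the shortest. The order does not hold for the other CATHL3 transcripts, of which 5 end in 87 coding bases and 1 in 15. Which end peptide those transcripts encode, a bactenecin or another, was not examined. The whole coding length came to 432 bases (144 codons) in CATHL4 and 474 bases (158 codons) in CATHL6. It was 528 bases (176 codons) in CATHL2, 570 bases (190 codons) in CATHL3 and 732 bases (244 codons) in CATHL5. The median of the 5 was 528 bases, beside 1146 bases over all protein-coding genes and 726 bases over those with 4 coding exons.

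CATHL5 had the longest coding sequence because of its first coding exon and not its last. The first coding exon measured 198 bases in CATHL2, CATHL3 and CATHL4 and 201 bases in CATHL6 and CAMP, but 456 bases in CATHL5. That is 255 bases, or 85 codons, more than in CATHL6, the member beside it. Its annotated start codon stands farther from the end of the first exon, which also holds 144 bases of 5′ UTR. Where the added bases lie relative to the start site of the other members was not examined. Whether reindeer or cattle cells use that start codon cannot be read from the annotation.

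**Figure D2:**
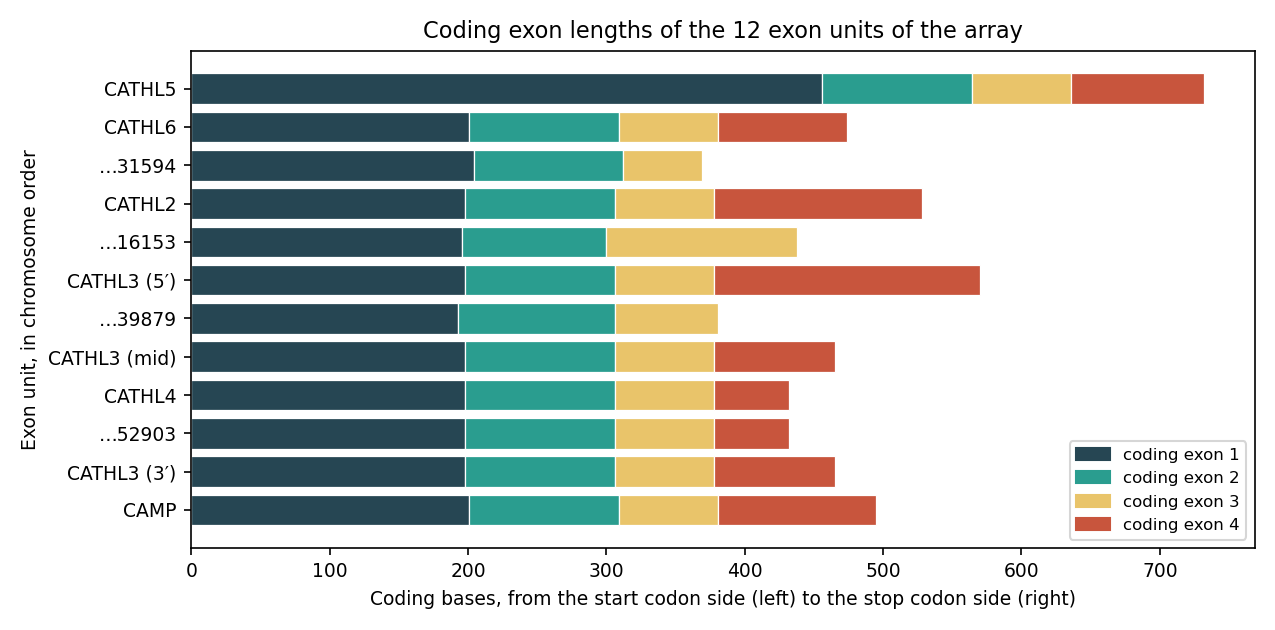
Coding bases of each coding exon in the 12 exon units of the array, stacked from the start codon side; CATHL3 is split into its 3 exon blocks. The second and the third segments measure 108 and 72 bases in all 9 units with 4 coding exons, the last segment runs from 54 to 192 bases, and the first segment of CATHL5 stands out with 456 bases.

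The CATHL3 model was not a single gene structure but 3 exon blocks joined by some of its transcripts. Blocks were called where exons were more than 5000 bases apart. In the direction of transcription, the 5′ block ran from 51618881 to 51621314, the middle block from 51599666 to 51601171 and the 3′ block from 51579579 to 51581082. The blocks were 17709 and 18583 bases apart, and each held exons numbered 1 to 4. Of the 7 transcripts, 3 stayed within 1 block and 4 joined exons of neighbouring blocks.

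Between the middle and the 3′ block, a switch was annotated after exon 1, after exon 2 and after exon 3. ENSBTAT00000011364 took exon 1 from the middle block and exons 2 to 4 from the 3′ block. ENSBTAT00000085052 took exons 1 and 2 from the middle block and the rest from the 3′ block. ENSBTAT00000079324 took exons 1 to 3 from the middle block and only exon 4 from the 3′ block. These switches fell in introns of 20197, 20233 and 20668 bases. ENSBTAT00000066567 took exons 1 and 2 from the 5′ block and exons 3 and 4 from the middle block, across an intron of 19633 bases. CATHL3 was the only member with an intron of at least 10000 bases, which 35.1% of all protein-coding genes had. No transcript joined the 5′ block to the 3′ block, and none kept all of its exons in the middle block.

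All joined transcripts had the same coding length as the transcript of the 3′ block alone. ENSBTAT00000026750, which lay wholly in the 3′ block, had 465 coding bases (155 codons), and so had each of the 4 joined transcripts. Their coding exons measured 198, 108, 72 and 87 bases, whichever block supplied them. The 5′ block differed in its last exon. ENSBTAT00000034610, wholly in the 5′ block, ended in a coding exon of 192 bases, and ENSBTAT00000021503, in the same block, had 99 bases in the third coding exon and 15 bases in the last, with 420 coding bases (140 codons) in all. Thus 3 coding lengths and 2 lengths of the third coding exon stood under the symbol CATHL3.

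**Figure D3:**
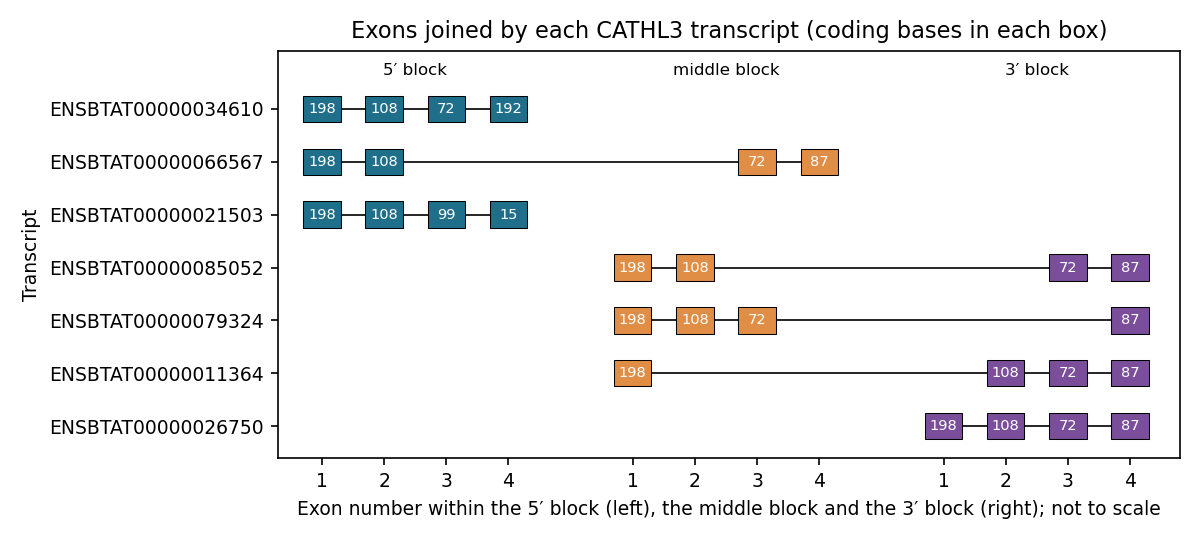
Exons joined by each of the 7 CATHL3 transcripts, in the direction of transcription from left to right and not to scale; boxes give coding bases and colours the block an exon lies in. Of the 7 transcripts, 4 cross from a block to the next one, and all 4 end in a coding exon of 87 bases.

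The middle and the 3′ block were laid out alike to the base. Each of the 4 coding segments of the 3′ block had a counterpart of the same length in the middle block, and each counterpart stood exactly 20084 bases higher, at its start and at its end. The introns between them therefore also had equal lengths, with 113, 149 and 584 bases in both blocks. The blocks differed outside the coding sequence, with an annotated 3′ UTR of 104 bases in the 3′ block and 101 bases in the middle block. In the 5′ block the introns of ENSBTAT00000034610 measured 609, 160 and 591 bases. Sequence identity between the blocks was not measured here.

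The span of CATHL3 enclosed 3 other genes of its strand, CATHL4, ENSBTAG00000052903 and ENSBTAG00000039879. None of them shared an exon base with CATHL3. CATHL4 and ENSBTAG00000052903 each lay within the limits of 3 CATHL3 transcripts, and ENSBTAG00000039879 within those of 1. Of all protein-coding genes, 217 of 21861 (0.993%) enclosed at least 1 gene of their strand and 14 (0.0640%) at least 3. CATHL3 also had transcripts whose spans do not overlap each other, as 27 of 8237 genes with more than 1 transcript had (0.328%). It was the only gene that had both such transcripts and at least 3 enclosed genes of its strand. The limit of 3 is the number that CATHL3 itself encloses. With at least 1 enclosed gene asked for, 2 genes had both.

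The unnamed gene ENSBTAG00000052903 matched CATHL4 in nearly every length. Both had coding exons of 198, 108, 72 and 54 bases, a 5′ UTR of 16 bases, a 3′ UTR of 103 bases and first and second introns of 103 and 137 bases. They differed in the third intron, which measured 587 bases in ENSBTAG00000052903 and 583 bases in CATHL4. Both lay between the 3′ block and the middle block of CATHL3, 5316 bases apart. The annotation gives ENSBTAG00000052903 no symbol, and its sequence was not compared.

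The other 3 unnamed genes of the run had 3 coding exons and no annotated UTR at either end. ENSBTAG00000039879 (51607354 to 51608515) had coding exons of 193, 113 and 75 bases and no annotated stop codon. ENSBTAG00000016153 (51631052 to 51632260) had coding exons of 196, 104 and 138 bases and no annotated start codon. ENSBTAG00000031594 (51653980 to 51655076) had coding exons of 204, 108 and 57 bases with both codons. Their first introns of 627, 619 and 572 bases and second introns of 154, 149 and 153 bases stood beside 620 and 152 bases in CAMP. ENSBTAG00000031594 began every coding exon in frame 0, as the members did, and the other two did not.

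With CATHL3 read as its 3 blocks, the run consisted of 12 exon units, and their first introns fell into 2 length classes. In 5 units the first intron measured 103 to 113 bases: CATHL2, CATHL4, ENSBTAG00000052903 and the middle and 3′ blocks of CATHL3. In the other 7 it measured 572 to 630 bases: CAMP, CATHL5, CATHL6, the 5′ block of CATHL3 and the 3 unnamed genes with 3 coding exons. No unit lay between 113 and 572 bases. Of the 5 units with a short first intron, 4 stood side by side, and CATHL2 stood apart from them between unnamed models of the long class. CATHL5 and CATHL6, the neighbours whose products are both alpha-helical, had the same first intron length of 630 bases. The bactenecin gene CATHL2 had 113 bases, whereas the 5′ block of CATHL3, with its longest coding transcript, had 609 bases. The indolicidin gene CATHL4, with 103 bases, was in the class of CATHL2. A link between product type and intron length was not tested.

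The other introns hardly varied. The second intron ran from 137 to 162 bases over the 12 units and the third from 579 to 601 bases over the 9 units with 4 coding exons. This range reads the 5′ block of CATHL3 from ENSBTAT00000034610. In ENSBTAT00000021503 of the same block the third intron measured 250 bases. The blocks of CATHL3 did not share a class of first intron. The middle and 3′ blocks had 113 bases, the same length as CATHL2, and the 5′ block, which holds the longest last coding exon, had 609 bases.

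**Figure D4:**
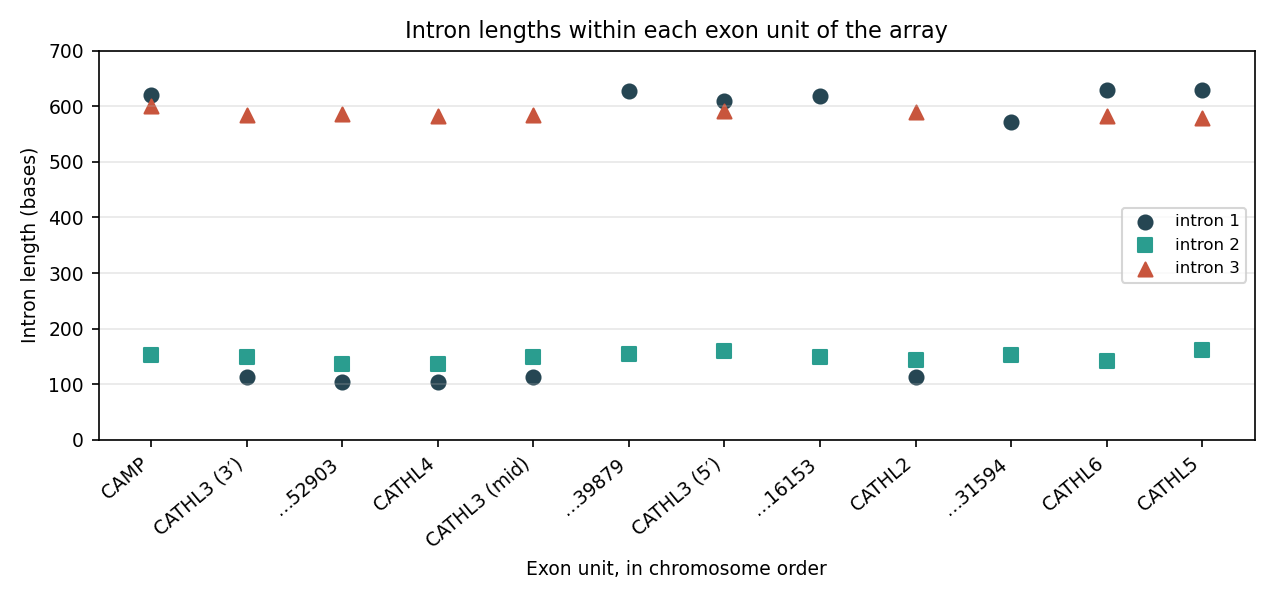
Length in bases of the introns within each of the 12 exon units of the array, in chromosome order. First introns (circles) lie at 103 to 113 or at 572 to 630 bases, while the second introns (squares) and the third introns (triangles) stay within 137 to 162 and 579 to 601 bases. The third intron of 250 bases in ENSBTAT00000021503, of the 5′ block of CATHL3, is not drawn.

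All 5 members had an annotated 3′ UTR, and 65.5% of protein-coding genes had one. Reads of 3′ libraries mostly fall near the transcript end, which can include coding bases where the 3′ UTR is short. Where reads fell was not examined. The longest 3′ UTR over the transcripts of a gene measured 85 bases in CATHL5, 103 bases in CATHL4, 120 bases in CATHL2, 247 bases in CATHL3 and 634 bases in CATHL6. The median was 120 bases, beside 626 bases over all protein-coding genes with a 3′ UTR (quartiles 270 and 1143 bases). Of those genes, 10.1% had a 3′ UTR no longer than the members' median. CATHL6 was the only member above the median of all genes, and CATHL5, beside it, had the shortest 3′ UTR of the members. CAMP had 60 bases.

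The 3′ UTR of CATHL3 depended on the transcript. It measured 104 bases in the 4 transcripts that end in the 3′ block, 101 bases in the one that ends in the middle block and 247 bases in ENSBTAT00000034610, and ENSBTAT00000021503 had none. The gene thus had 4 different 3′ ends spread over its 3 blocks. The 5′ UTR also varied, up to 254 bases in CATHL3, and measured 197 bases in CATHL2, 187 bases in CATHL6 and 16 bases in CATHL4.

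**Figure D5:**
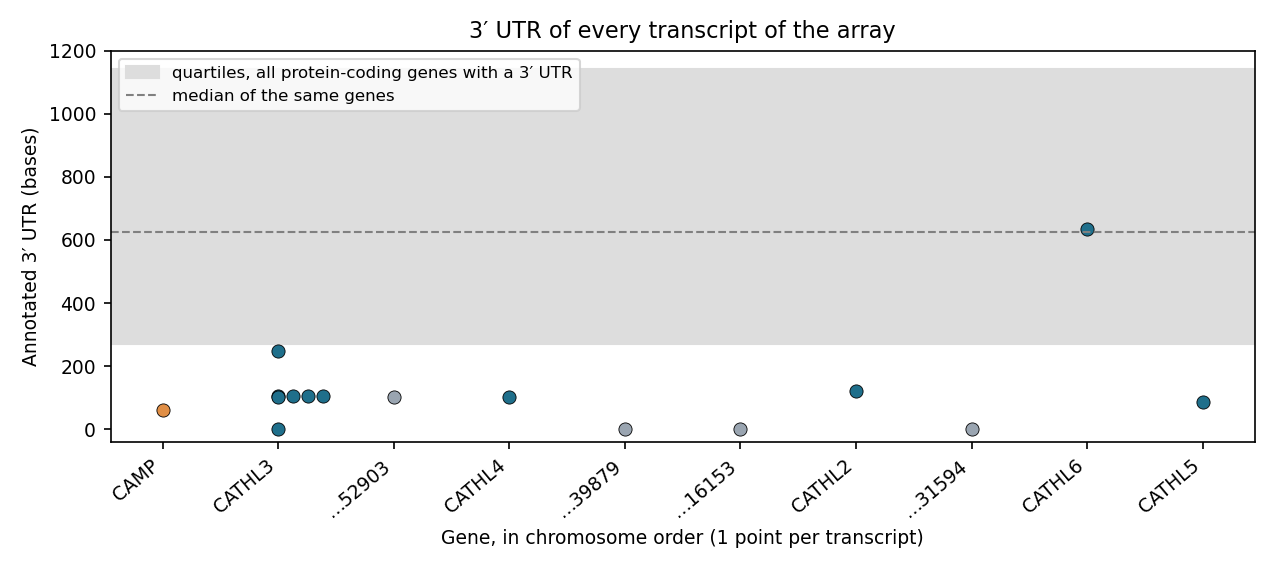
Annotated 3′ UTR in bases of every transcript of the 10 genes of the run, 1 point per transcript, with unnamed genes in grey. The shaded band spans the quartiles of all protein-coding genes with a 3′ UTR (270 to 1143 bases) and the dashed line is their median of 626 bases; of the members only CATHL6 lies in the band, at 634 bases.

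No member shared an exon base with another gene of its strand. Downstream of the annotated 3′ end, the next gene on the strand began after 2881 bases for CATHL3 (CAMP), 5316 bases for CATHL4 (ENSBTAG00000052903) and 6046 bases for CATHL5 (CATHL6). The distance was 7724 bases for CATHL6 (ENSBTAG00000031594) and 8802 bases for CATHL2 (ENSBTAG00000016153). The next gene was thus an unnamed one for 3 of the 5 members. No value over all genes is given beside these counts and distances, so whether they are unusual cannot be told. Over the 12 exon units the gaps ran from 2881 to 11222 bases with a median of 6182 bases.

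Genes related to cathelicidins were read from 6 lists: processing proteases and a homologue, receptors, regulators, neutrophil granule proteins, other antimicrobial peptides and relatives by the cystatin fold. The lists held 59 symbols, of which 53 were matched to 54 genes. A 3′ UTR was annotated for 50 of these 54 genes, with a median of 195 bases. Among all protein-coding genes the annotated share was 65.5%, and the median length of those 3′ UTRs was 626 bases. The granule protease genes ELANE and PRTN3 had 101 and 113 bases, AZU1, whose product is a homologue without protease activity, had 118 bases, and CTSG was not matched. Of the receptors, P2RX7, an ATP-gated channel, had 1000 bases and CXCR2, a chemokine receptor, had 45 bases, and FPR2 was not matched. A 3′ UTR was annotated in 7 of 8 regulators and its median was 1197 bases. The shortest, 207 bases, belonged to CEBPE, a transcription factor of granulocyte maturation, and the longest, 3280 bases, to RXRA, the partner of the vitamin D receptor. CEBPB had none and CEBPA was not matched.

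The 3′ UTRs of other defence peptide genes are given beside those of the members. They were annotated in all 17 matched genes of that list, beside 65.5% of all protein-coding genes, and had a median of 114 bases. S100A8, a calcium-binding protein gene, had the shortest at 85 bases and LYZ2, a lysozyme gene, the longest at 720 bases. DEFB5 and NK2A were not matched. The tracheal and lingual antimicrobial peptide genes TAP and LAP, both beta-defensins, had 103 and 113 bases but only 2 coding exons each. Among 12 neutrophil granule genes, CAMP included, the median was 196 bases in the 11 that had a 3′ UTR; OLFM4 had 44 bases, LYZ had 1120 bases and MMP8 had none. Among 11 genes related by the cystatin fold, the median was 207 bases in the 9 that had a 3′ UTR; CSTA had 89 bases, KNG1 had 1144 bases, and CST8 and HRG had none. KNG2 was not matched. None of these genes outside the run had the coding exon lengths of the members.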

How the data were processed

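The authors deposited 1 gene annotation, which holds 37538 transcripts on ARS-UCD1.2, per the file headers. Its values, start and end positions in bases, belong to no sample. Per the submitters' processing notes, Seurat, STAR and Cell Ranger 3 are named without a step for each. Groups follow the tissue in the labels.

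Members and lists were chosen with earlier results of these data known. Genes were matched by symbol. Coding exons were taken from a gene's transcript of longest coding sequence, and the longest 3′ UTR over all of its transcripts; coding lengths leave out the stop codon. Genes named were the members, all genes within 100 kb of them, all genes with their coding exon lengths, and from the lists those not matched, without a 3′ UTR, or with the longest or shortest; MCCC1, TPCN1, the SLC41A genes, TAP, LAP and PRTN3 were also named after their values were seen. The split of first introns into classes and of CATHL3 into blocks was made after the data were seen. No test was run, since 5 gene models are no sample. The reader was tested on simulated annotation. Python 3.11.15, NumPy 2.4.6 and matplotlib 3.10.9 were used.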

Additional observations from a re-analysis of the deposited data

How the results depend on the processing

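Of 21 alternatives to the 8 values reported, 16 left the value within 1 SD over the items behind it or, for counts, within 1.5 times, and 5 did not. Some of the 16 could not have moved, since all members had a 3′ UTR and the whole run lay on 1 strand. For 3′ UTR length 1 SD is a wide limit, as the members ran from 85 to 634 bases. The 16 are therefore no measure of how firm the values are. With a 3′ UTR of at least 200 bases required, 2 members and 24 genes of the lists had one, against 5 and 50; 53.5% of all protein-coding genes did. With any number of coding exons allowed, 18 genes held the members' inner coding exon lengths, against 7. The median distance between neighbouring genes that do not overlap was 8802 bases over all genes between the outermost members and 19748 bases over named members only. The median distance from a member's 3′ end to the next gene was 6046 bases on its strand and 13237 bases when the next gene needed a symbol. Reading CATHL3 as its blocks (6953 bases) and by its farthest downstream transcript (median 3′ UTR of 104 bases) was added after the data were seen. No paired analysis was possible because the result comes from no test and the annotation belongs to no sample. The values depend on 1 annotation of another species.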
